A study of Mus musculus with 10 samples.

Results

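Of the 41983 Pax5 ChIP-seq peaks listed for wild-type pro-B cells, 6425 lay away from gene starts and were also present in pro-B cells that carried Pax5 R31Q as their sole Pax5 protein. These distal shared peaks were chosen by position alone. Each was under 1000 bp wide in the wild-type list, overlapped a peak of the R31Q/- list (18821 peaks) by at least 1 bp, and had no base within 1 kb of a RefSeq transcription start site (TSS) of the GRCm38 mouse genome. Of 41102 wild-type peaks under 1000 bp, 14857 overlapped an R31Q/- peak, and 8432 of these were promoter peaks within 1 kb of a TSS. The widest member measured 994 bp and the narrowest shared distal peak left out 1000 bp; 68 shared distal peaks were left out for their width. The member edge nearest to a TSS was 1002 bp away, the farthest promoter peak 1000 bp, and the smallest overlap between both lists was 53 bp.

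The R31Q exchange, an arginine replaced by glutamine, lies in the DNA-binding paired domain of Pax5, and the study asked how it affects binding and gene expression in early B cells. Pax5 binding had been mapped in 2 libraries, 1 per genotype, from C57BL/6 bone marrow pro-B cells expanded in short-term culture on stromal cells with IL-7. The wild-type ChIP-seq library came from Rag2-/- cells (2 intact Pax5 alleles and no Rag2), and the mutant library from Pax5 R31Q/- cells (1 R31Q allele and 1 null allele). For that library the description in the labels writes R31Q/- after the name Rag2, whereas its genotype entry gives Pax5(R31Q/-), which was followed here. Whether these cells also lacked Rag2 is not given in the sources used here, so a difference in Rag2 between both libraries cannot be told apart from the Pax5 genotype in what was found in 1 list alone. Both used a rabbit polyclonal antibody raised against the paired domain, the domain that holds the exchanged residue. Expression had been measured in 8 RNA-seq libraries of ex vivo sorted C57BL/6 cells, 2 for each of Pax5+/+, Pax5+/- (1 intact and 1 null allele), Pax5 R31Q/- and Pax5 fl/fl Vav-Cre. In the last group Cre under the Vav promoter, which is active across blood cells, deletes both Pax5 alleles. The labels call these Pax5-null cells progenitor cells and the others pro-B cells. The labels do not say whether the 2 libraries of a genotype came from separate mice, so p-values measure only the spread between these libraries. Replicate numbers, which the labels do not give, follow the order of deposit and only name a library.

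Pax5 commits early lymphoid cells to the B lineage by activating genes of the pre-B cell receptor pathway and repressing genes of other lineages. It binds DNA through the paired domain, a bipartite structure whose N-terminal subdomain contacts the 3′ part of the recognition sequence and whose C-terminal subdomain contacts the 5′ part. Away from promoters, Pax5 is found at enhancers together with other B-lineage regulators such as Ebf1, E proteins, Runx1 and the ETS factor PU.1.

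The 3′ part of the recognition sequence, GCGTGAC, was the Pax5 motif that set the members most clearly apart from their surroundings, and 8 members that hold it beside a gene named here are shown, 1 for each gene, with the 7 letters in capitals. Each is a 300-base window of the GRCm38 plus strand around the midpoint of the wild-type peak. They were ranked by the number of different motifs found in them, from 6 of the 19 motifs searched at Cecr2 to 3 at Cd55.
Cecr2 chr6:120644901-120645200: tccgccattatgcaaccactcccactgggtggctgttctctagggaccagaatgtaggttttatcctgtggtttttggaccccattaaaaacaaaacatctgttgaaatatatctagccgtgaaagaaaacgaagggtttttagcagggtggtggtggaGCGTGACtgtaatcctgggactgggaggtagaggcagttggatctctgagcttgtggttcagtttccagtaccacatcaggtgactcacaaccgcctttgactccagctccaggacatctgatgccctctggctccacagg
Bfsp2 chr9:103443905-103444204: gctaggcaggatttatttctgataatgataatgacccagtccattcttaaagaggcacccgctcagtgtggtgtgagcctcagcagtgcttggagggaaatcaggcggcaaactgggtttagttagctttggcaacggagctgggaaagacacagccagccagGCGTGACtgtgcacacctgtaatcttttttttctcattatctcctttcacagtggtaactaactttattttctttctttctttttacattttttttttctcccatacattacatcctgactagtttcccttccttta
Ciita chr16:10495984-10496283: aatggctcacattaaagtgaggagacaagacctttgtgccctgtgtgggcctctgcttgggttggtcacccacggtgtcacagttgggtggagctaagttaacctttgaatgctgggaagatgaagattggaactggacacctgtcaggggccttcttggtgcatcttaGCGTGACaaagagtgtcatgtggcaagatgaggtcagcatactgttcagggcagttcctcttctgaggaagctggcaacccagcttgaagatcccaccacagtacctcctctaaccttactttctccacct
Cyth1 chr11:118254211-118254510: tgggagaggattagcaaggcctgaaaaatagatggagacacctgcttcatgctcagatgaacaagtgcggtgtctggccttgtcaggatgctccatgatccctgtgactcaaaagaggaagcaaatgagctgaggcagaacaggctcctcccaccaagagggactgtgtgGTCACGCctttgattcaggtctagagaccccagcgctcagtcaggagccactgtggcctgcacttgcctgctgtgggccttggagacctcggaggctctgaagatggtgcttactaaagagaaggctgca
Inpp5d chr1:87640375-87640674: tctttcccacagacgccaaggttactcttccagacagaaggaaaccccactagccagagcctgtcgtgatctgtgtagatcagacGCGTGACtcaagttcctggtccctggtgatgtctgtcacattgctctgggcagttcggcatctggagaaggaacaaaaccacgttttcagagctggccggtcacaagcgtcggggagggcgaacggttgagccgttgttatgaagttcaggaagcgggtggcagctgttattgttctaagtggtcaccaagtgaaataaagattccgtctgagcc
Bach2 chr4:32523506-32523805: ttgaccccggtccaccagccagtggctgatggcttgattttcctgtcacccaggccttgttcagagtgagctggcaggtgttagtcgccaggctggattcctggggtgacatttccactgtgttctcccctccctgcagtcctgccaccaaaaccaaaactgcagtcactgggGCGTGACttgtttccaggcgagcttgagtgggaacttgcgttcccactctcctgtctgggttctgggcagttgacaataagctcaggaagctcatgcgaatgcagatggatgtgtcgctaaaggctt
Bcl6 chr16:23984228-23984527: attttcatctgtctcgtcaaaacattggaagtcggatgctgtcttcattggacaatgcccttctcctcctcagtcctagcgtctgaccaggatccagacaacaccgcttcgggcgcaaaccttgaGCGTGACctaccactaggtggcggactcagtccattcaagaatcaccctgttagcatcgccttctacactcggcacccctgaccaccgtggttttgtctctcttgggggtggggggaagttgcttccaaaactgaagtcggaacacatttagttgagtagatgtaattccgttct
Cd55 chr1:130475070-130475369: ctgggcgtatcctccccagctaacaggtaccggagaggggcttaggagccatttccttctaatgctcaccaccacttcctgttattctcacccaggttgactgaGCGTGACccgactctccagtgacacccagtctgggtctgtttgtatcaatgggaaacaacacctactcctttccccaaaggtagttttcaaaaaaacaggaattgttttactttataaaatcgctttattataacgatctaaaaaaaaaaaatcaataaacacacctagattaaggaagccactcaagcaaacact
None of these windows overlaps a RefSeq exon. Those near Bfsp2 (lens filament protein, a gene Pax5 activates), Ciita (regulator of MHC class II genes), Inpp5d (the phosphatase SHIP-1), Bach2 and Bcl6 (transcriptional repressors) lie in introns of RefSeq genes. Those near Cecr2 (chromatin remodelling factor), Cyth1 (activator of ARF GTPases) and Cd55 (complement inhibitor) are intergenic. At Cyth1 the letters read GTCACGC because the match is on the minus strand. The centre of the match lay between 13 and 61 bp from the midpoint in all 8. The Cecr2 peak was 53.3% repeat-masked, the Bfsp2 peak 37.2% and the others at most 16.9%. Lower case in these windows does not mark repeats.

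The median width of members was 393 bp (quartiles 322 and 504, range 183 to 994), above the 308 bp of the 6417 distal wild-type peaks that had no R31Q/- partner and were under 50% repeat-masked, and below the 515 bp of promoter shared peaks. The R31Q/- partner had a median width of 441 bp and was the wider of both in 4453 members (69.3%). The median ratio of partner to member width was 1.13, against 1.33 at promoter shared peaks. Midpoints of member and partner were a median of 25 bp apart, and 4852 pairs (75.5%) had them within 50 bp, which is a description, since overlap was part of the choice of members. Only 2 members met 2 or more R31Q/- peaks. The peak files give a start and an end but no height, so widths describe how far the called region reached and not how much Pax5 was bound. In what follows, the distal wild-type peaks without an R31Q/- partner are called lost peaks. A further 18769 lost peaks that were 50% or more repeat-masked were not compared, while 343 members (5.34%) were as strongly masked.

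About as many members lay in introns as outside them, and members were closer to gene starts than the distal genome as a whole. Their midpoints fell in RefSeq introns in 50.1% (95% Wilson interval 48.9 to 51.4), in exons in 9.28% (8.59 to 10.01) and between genes in 40.6% (39.4 to 41.8). Lost peaks gave 53.1%, 7.34% and 39.5%. On a grid of positions every 5 kb, over 1 kb from a TSS, 41.1% were intronic, 3.66% exonic and 55.3% intergenic. Exons were thus represented more often among members than on the grid. The median distance to the nearest TSS was 11552 bp for members, 16086 bp for lost peaks, 11299 bp for the 1947 distal peaks found in the R31Q/- list alone and 30579 bp on the grid. Of all members, 24.98% lay under 5 kb, 42.6% between 5 and 20 kb and 3.05% over 100 kb from a TSS. Intervals here and below cover counting error only, since each genotype had 1 ChIP-seq library. When the GENCODE M21 annotation was laid over the same positions, 681 members (10.6%) were within 1 kb of a start that RefSeq does not list.

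**Figure D1:**
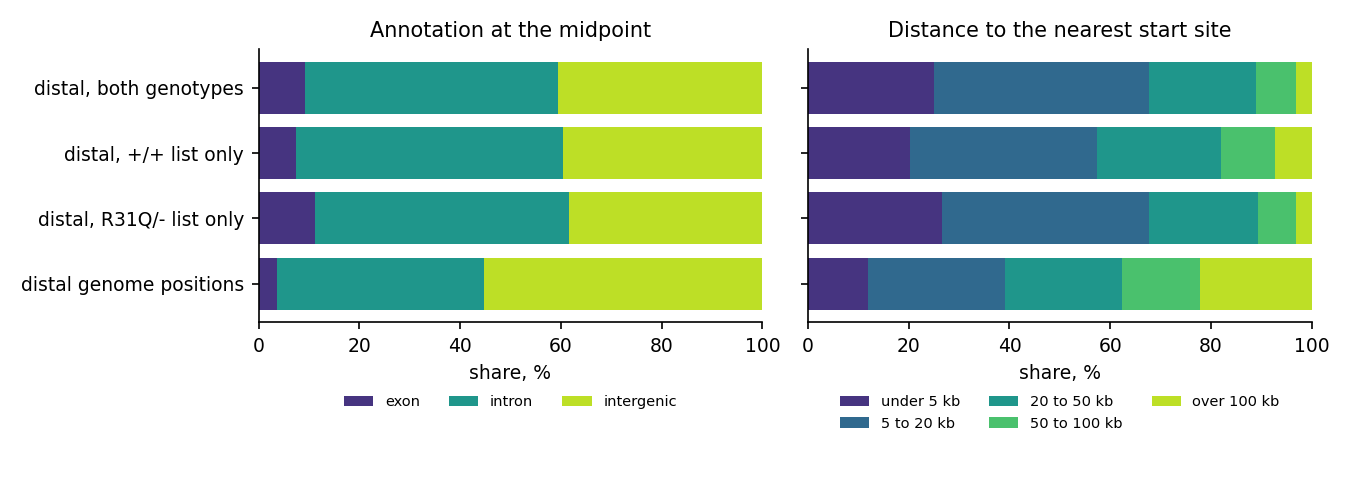
Stacked bars give the share in percent of midpoints by RefSeq annotation (left) and by distance to the nearest TSS (right) for distal peaks of both genotypes, distal peaks of 1 list alone and distal genome positions. Intronic members make up 50.1% and members under 5 kb from a TSS 24.98%, against 41.1% and 11.9% of genome positions.

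Members were also found in groups. A second member lay within 10 kb of 1515 members (23.6%), and joining members over gaps of at most 10 kb gave 140 groups of 3 or more that held 469 members (7.30%). The largest group had 9 members over 38690 bp at chr6:47739850-47778539, nearest to Mir704. A group of 5, nearest to Rn4.5s, lay close by at chr6:47659298-47686154. The repeat-masked share of these groups was not examined. Groups of 6 lay nearest to Grk2, a kinase of G protein-coupled receptors, to Mir142, a haematopoietic microRNA gene (chr11:87745040-87755689), to Sema7a and to Erdr1. Erdr1 is annotated on both sex chromosomes, so its 7 members, 6 on Y and 1 on X, cannot be assigned to 1 copy. Of all wild-type peaks, 15.3% were members. In the immunoglobulin loci, which do not rearrange in the Rag2-/- cells of the wild-type library, the heavy-chain locus had 9 of its 75 wild-type peaks among the members, the kappa locus 12 of 109 (11.01%) and the lambda locus 1 of 14 (7.14%). Inside the Pax5 gene itself (chr4:44524748-44710694), 7 wild-type peaks were members and 1 distal peak was lost.

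GCGTGAC stood within 150 bp of the midpoint in 524 members (8.16%, interval 7.51 to 8.85), against 0.615% of the 300-base windows centred 1 kb to each side, a ratio of 13.3. Both strands were searched. Lost peaks held it in 5.41%, which was 2.75 percentage points less (Newcombe interval of the difference 1.88 to 3.62), promoter shared peaks in 6.82% and distal R31Q/- peaks without a wild-type partner in 3.60%. Of 32851 RefSeq promoter windows, which span 250 bases before to 50 after each gene's start (GRCm38.p6), 2.09% held it. The match was a median of 16.5 bp from the midpoint and within 50 bp in 416 of the 524 (79.4%). Its share was 9.33% in CpG-rich members, defined further on, and 8.05% in the others, with overlapping intervals. A search over all 8-letter words, with no motif given, put AGCGTGAC first by its ratio to the flanks (3.81% of members, 16.9 times the flanking share), followed by CGTGACCA (15.5 times) and ACCGTGAC (12.51 times). The 6 letters CGTGAC alone were found in 17.96% of members, 11.6% of lost peaks, 18.2% of promoter shared peaks and 3.62% of member flanks. The members' share was minus that of promoter shared peaks was -0.23 points (-1.48 to 1.02).

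For the full recognition sequence members and lost peaks changed places. The best stretch on either strand was scored against the 15-base Pax5 consensus, in which 14 positions have a defined base; this search was chosen after the motif shares had been seen. At least 11 positions were met in 13.6% of members (12.7 to 14.4) and in 22.8% of lost peaks, a difference of -9.23 points (-10.6 to -7.90). Flanks gave 3.60% and 3.03%. At least 12 positions were met in 3.81% of members and 6.997% of lost peaks. Promoter shared peaks reached 11 positions in 6.46%, and distal R31Q/- peaks without a wild-type partner in 4.42%, against 3.72% of their own flanks. Members thus stood between lost peaks and both other classes.

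The intact part of the sequence also differed between members and lost peaks. Among windows with 11 or more positions met, all 7 positions of the 3′ part were met in 182 of 871 members (20.9%) and in 160 of 1462 lost peaks (10.9%), a difference of 9.95 points (6.87 to 13.1). All 6 defined positions of the 5′ part were met in 163 members (18.7%) and 364 lost peaks (24.9%), a difference of -6.18 points (-9.53 to -2.71). Read from the other side, at least 5 of the 8 positions before CGTGAC were met at 20.3% of the 1244 CGTGAC matches in members, 26.0% of the 784 in lost peaks, 5.86% of the 1740 in promoter shared peaks and 5.096% of the 471 in member flanks. A window can hold more than 1 match. The 5′ part searched alone, GCANCCA, was at 26.1% of members, 25.4% of lost peaks and 19.8% of member flanks. Its share in members exceeded that in lost peaks by 0.73 points, with an interval of -0.78 to 2.24.

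**Figure D2:**
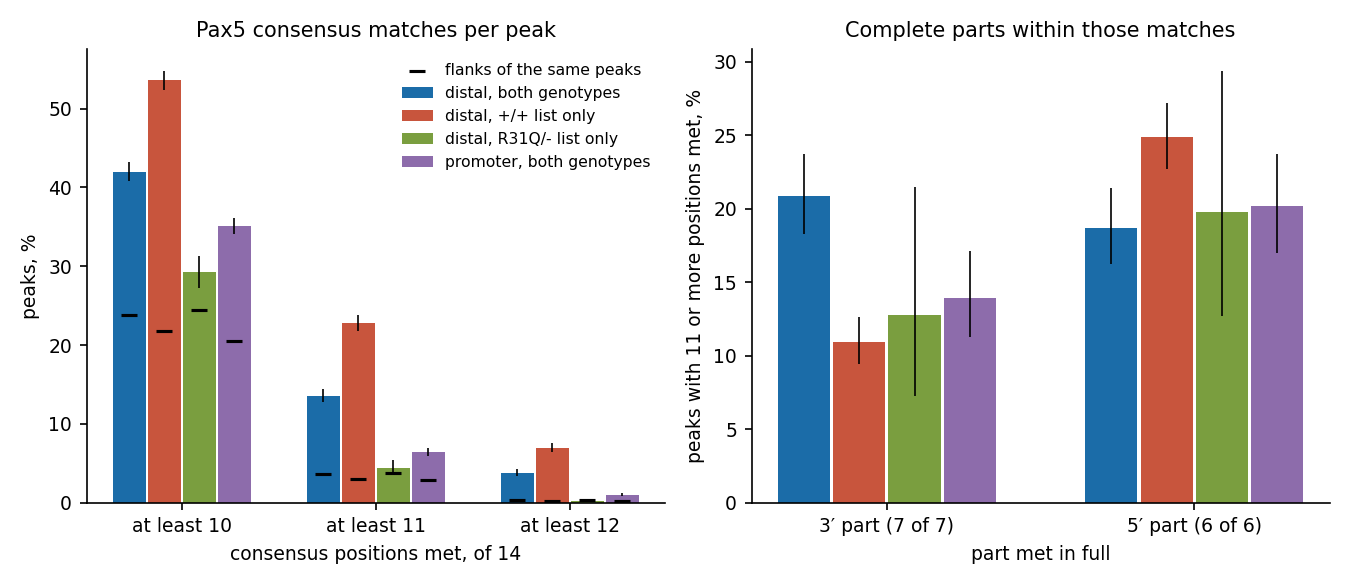
The left panel gives the share in percent of peaks whose best stretch meets at least 10, 11 or 12 of 14 consensus positions, and the right panel the share of peaks with 11 or more positions met in which the 3′ or the 5′ part is complete. Bars are 4 classes of peaks with 95% Wilson intervals, and dashes the flanks; members reach 11 positions in 13.6% and lost peaks in 22.8%, while the complete 3′ part is at 20.9% and 10.9%.

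The ETS, Runx, E-box and Ebf1 motifs were more frequent in members than in their flanks and in lost peaks, whereas the IRF, Forkhead and NF-Y motifs, given further on, were less frequent than in lost peaks. The ETS motif GGAAGT was at 31.8% of members (30.7 to 33.0), 17.7% of flanks and 25.5% of lost peaks, and the longer form GAGGAAGT that PU.1 and Spi-B prefer, which contains it, at 7.08%, 2.29% and 4.30%. The Runx motif TGTGGT was at 35.9%, 22.4% and 27.8%. The E-box CAGCTG, bound by E proteins such as the Tcf3 products, was at 31.2%, 14.996% and 21.97%, and the palindromic Ebf1 motif CCCNNGGG at 18.9%, 8.59% and 9.69%. Members exceeded lost peaks by 6.37 points for ETS (4.803 to 7.92), 8.12 for Runx (6.51 to 9.72), 9.20 for CAGCTG (7.68 to 10.7) and 9.23 for Ebf1 (8.03 to 10.4). These letters were not particular to members. Distal R31Q/- peaks without a wild-type partner held ETS letters in 35.6%, Runx letters in 41.1%, CAGCTG in 33.6% and Ebf1 letters in 23.01%, and members minus these peaks gave -3.80 points (-6.23 to -1.41), -5.23 (-7.72 to -2.77), -2.42 (-4.82 to -0.06) and -4.08 (-6.22 to -2.02). Promoter shared peaks had 28.6%, 13.5%, 17.6% and 21.9995% in the same order, so Ebf1 letters were more frequent there than in members as well (members minus promoter shared peaks -3.07, -4.37 to -1.76). A second E-box, CAGGTG, was at 30.5% of members and 22.6% of lost peaks. Of all RefSeq promoter windows, 23.8% held the ETS, 16.8% the Runx, 16.3% the CAGCTG, 20.2% the CAGGTG and 13.7% the Ebf1 letters.

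Of the other motifs, SP/KLF (GGGCGG) was at 15.2% of members, 5.58% of lost peaks and 5.54% of flanks, and members exceeded lost peaks by 9.61 points (8.57 to 10.7). It was at 68.5% of promoter shared peaks, 14.6% of distal R31Q/- peaks without a wild-type partner and 35.7% of RefSeq promoter windows. A part of the CTCF motif, AGGGGGC, was at 7.52% of members and 4.47% of lost peaks, a difference of 3.05 points (2.23 to 3.87), and at 10.6% of RefSeq promoter windows. The STAT motif TTCNNNGAA was at 12.6% of members, 12.4% of lost peaks and 9.08% of flanks, and the AP-1 motif TGANTCA at 9.99%, 10.7% and 7.98%. The ETS-IRF composite GGAANNGAA, the IRF motif GAAANNGAA and the Forkhead motif TGTTTAC were in members within 0.280 points of their flanks, with intervals that include 0. The IRF motif was at 9.49% of members and 11.6% of lost peaks (difference -2.10, -3.16 to -1.04) and the Forkhead motif at 4.11% and 5.11% (-1.002, -1.73 to -0.28). The Ikaros motif TGGGAA and the NF-Y motif CCAAT were less frequent in members (24.1% and 26.4%) than in flanks (26.3% and 33.0%). Lost peaks held the NF-Y motif in 30.3% (members minus lost peaks -3.93, -5.48 to -2.37). A match is a run of letters and not a bound site.

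**Figure D3:**
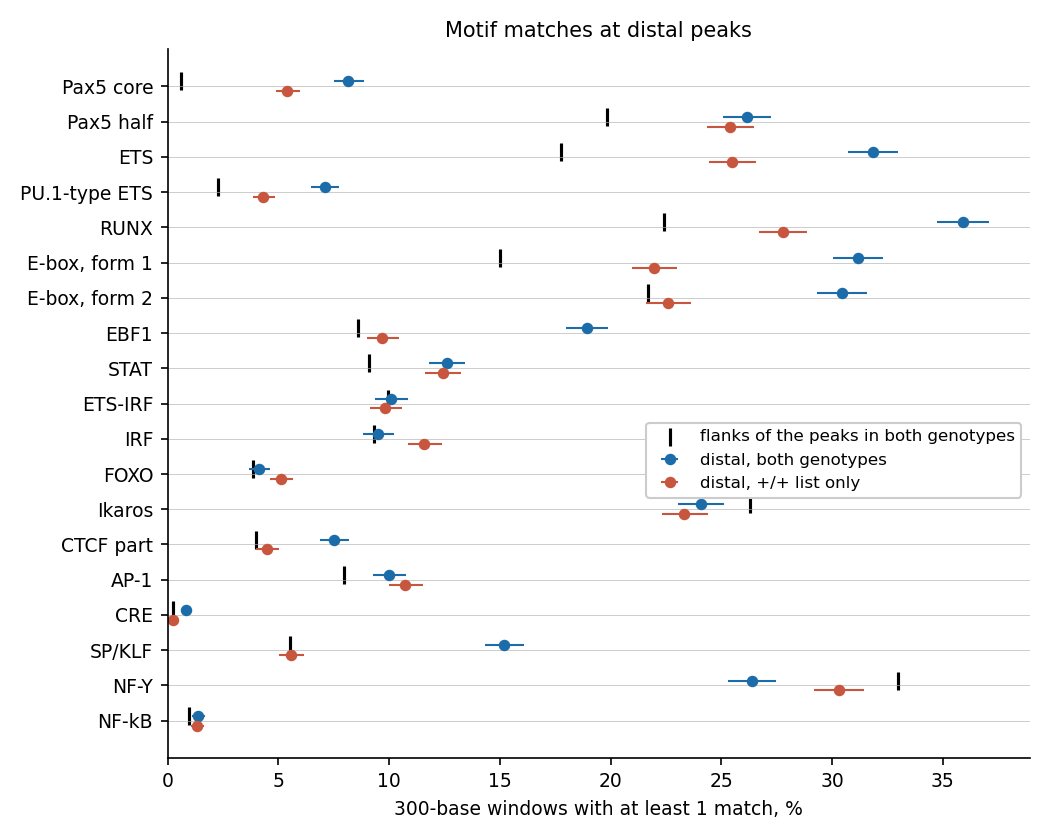
Points give the share in percent of 300-base windows with at least 1 match to each of 19 motifs, in distal peaks of both genotypes and in lost distal peaks, with 95% Wilson intervals; ticks mark the flanks of the former. The members lie to the right of the lost peaks for ETS (31.8% against 25.5%), Runx, both E-boxes, Ebf1 and SP/KLF.

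Of the ETS, Runx and Ebf1 motifs and both E-boxes, 3 or more of the 5 were in 1064 members (16.6%) and in 4.02% of flanks, and none in 18.8% of members and 39.4% of flanks, and whether they met more often than their single shares give was not tested. Members that hold GCGTGAC had each of the 5 less often than the other members. The ETS share was 24.6% against 32.5%, the Runx share 28.2% against 36.6%, the CAGCTG share 22.3% against 32.0%, the CAGGTG share 24.6% against 30.98% and the Ebf1 share 12.8% against 19.5%, with intervals that do not overlap. Matches of these motifs were most frequent at the midpoint. In the 50 bp after it, ETS matches reached 8.82 per 100 members against 3.05 in the outermost 50 bp, 1 kb away.

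**Figure D4:**
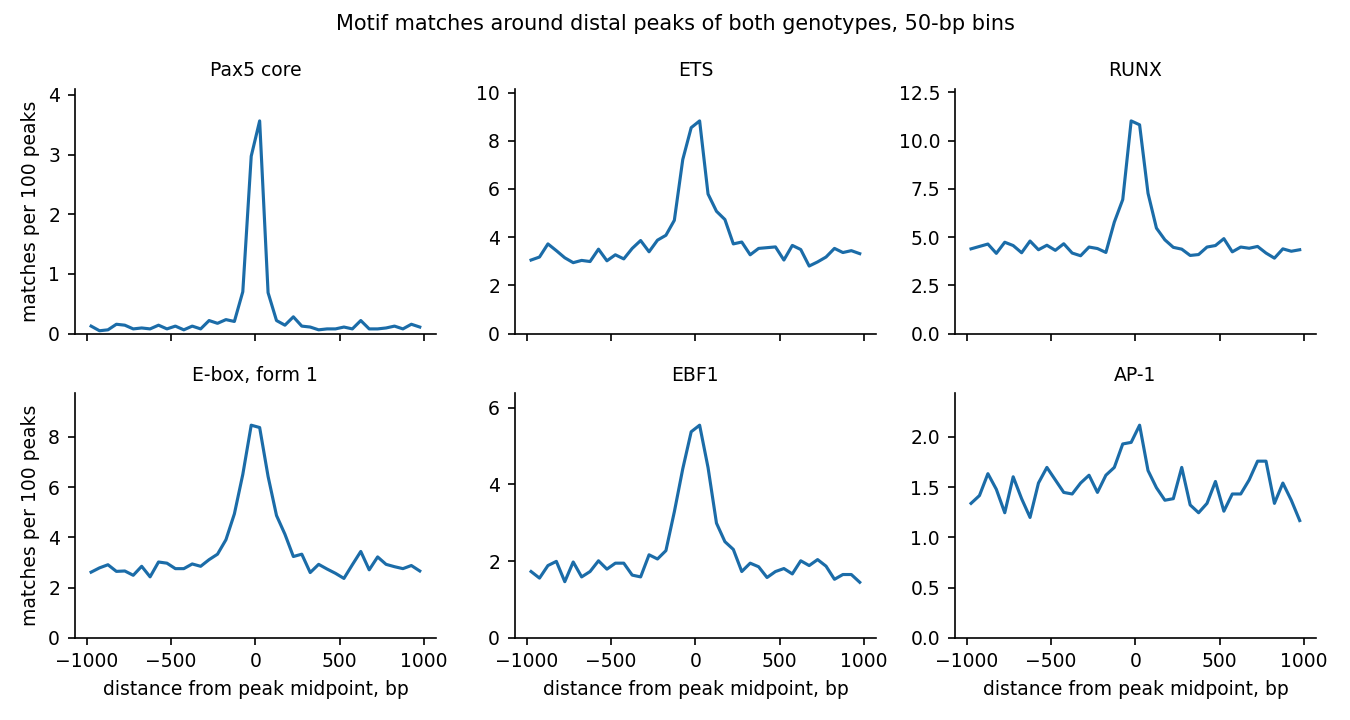
Lines give motif matches per 100 members in 50-bp bins against the distance in bp from the peak midpoint, with 1 panel for each of 6 motifs. Pax5 core matches (GCGTGAC) reach 3.56 per 100 members in the 50 bp after the midpoint, and ETS matches 8.82.

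Base composition and width differed between the classes as well. The median GC content was 51.0% in member windows, 46.7% in their flanks, 46.0% in lost peaks and 65.3% in promoter shared peaks, and the part of composition in the motif shares was not tested. Within a band of widths from 300 to under 400 bp (2267 members and 2446 lost peaks) the order was kept. In that band 11 or more consensus positions were met in 11.998% and 26.7%, GCGTGAC was at 9.44% and 5.76%, and the ETS motif at 31.4% and 26.1%. CpG-rich windows, with at least 50% GC and an observed-to-expected CpG ratio of at least 0.6, made up 536 members (8.34%), 1.48% of lost peaks and 80.7% of promoter shared peaks. In these 536, the SP/KLF motif GGGCGG was at 61.4% and the Runx motif at 13.99%, and 27.6% were within 1 kb of a GENCODE start. In the remaining members these shares were 10.99%, 37.9% and 9.05%.

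Genes beside members were examined in the RNA-seq data. A member was assigned to the nearest TSS within 50 kb of a gene in the expression table, which gave 5008 members (77.9%) and 3639 genes, 14.7% of the genes matched to RefSeq. Of these, 2762 had 1 member and 52 had 5 or more. Nearness does not show that a peak acts on a gene. Expression is given in TPM (transcript abundance scaled to the same total in each library), and 2552 of the 3639 genes reached 1 TPM in at least 1 library, while 1087 did not. The median level in Pax5+/+ was 28.7 TPM for tested genes with a member and 21.7 TPM for those without. A wild-type peak at the TSS was present in 1801 of the 2552 (70.6%, against 68.0% of all tested genes), and 841 (33.0%, against 18.2%) also had a lost peak.

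Transcripts of early B cells were present in all 8 libraries, some of them at lower levels without Pax5. Cd79a was at 634 and 488 TPM in Pax5-null cells and at 2290 to 4786 TPM in the other libraries, Vpreb1 at 1107 and 1042 against 2386 to 3479, Igll1 at 1298 and 1080 against 2722 to 3970, and Ebf1 at 143 and 166 against 387 to 502. Cd79b ranged from 1083 to 1716 TPM and Dntt, the terminal transferase, from 2277 to 3566 TPM, while the T cell genes Cd3e, Cd3g and Cd3d and the erythroid Hba-a1 stayed at or below 0.666 TPM. Transcripts of myeloid cells were present in every library, and Mpo and Elane were highest in Pax5-null replicate 1 (132 and 92.6 TPM) and lowest in Pax5-null replicate 2 (16.6 and 6.69 TPM). Lyz2 was highest and lowest in the same libraries (233 and 57.0 TPM). S100a8 was highest in Pax5+/- replicate 2 (475 TPM) and at 471 and 80.2 TPM in Pax5-null cells. It was at 305 TPM in both Pax5 R31Q/- libraries and at 159 and 113 TPM in Pax5+/+. Nkg7, a gene of cytotoxic cells, was at 56.2 and 24.7 TPM in the Pax5-null and at 4.07 to 8.08 TPM in the other libraries. Of the other NK cell genes, Klrb1c was at 6.17 and 6.35 TPM in the Pax5-null and at 8.73 to 15.7 TPM in the other libraries, and Ncr1 at most at 0.242 TPM in all 8. Their part in the results below was not tested. In such bulk libraries, fewer cells of a type and less RNA per cell cannot be told apart. Pax5 RNA was at 418 and 444 TPM in Pax5+/+, 272 and 287 in Pax5+/-, 306 and 293 in Pax5 R31Q/-, and 1242 and 1409 in Pax5-null cells. TPM per gene do not separate R31Q from wild-type transcripts or show which exons were deleted, so they are no check of the alleles. The antisense gene 5730488B01Rik, whose 6 members all lie inside Pax5 on the other strand, could share reads with Pax5 if counting ignored strand.

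Genes with a member were called changed more often than tested genes at large. A gene was called with an adjusted p under 0.05 (limma on log2(TPM + 1), Benjamini-Hochberg), a change over 3-fold and a mean over 5 TPM in 1 genotype. In Pax5-null against Pax5+/+ cells, 169 genes with a member (6.62%) were lower and 124 (4.86%) higher, against 3.51% and 2.92% of all 13154 tested genes. In Pax5 R31Q/- against Pax5+/+ cells, 35 (1.37%) were lower and 16 (0.627%) higher, against 0.57% and 0.281%. In Pax5 R31Q/- against Pax5-null cells, 99 (3.88%) were lower and 108 (4.23%) higher, against 2.28% and 2.77%. Among 1550 tested genes with a lost peak but no member, 4.65% were lower and 2.90% higher in Pax5-null against Pax5+/+ cells. In Pax5 R31Q/- against Pax5+/+ cells these shares were 0.903% and 0.645%, and against Pax5-null cells 2.06% and 3.94%. Shares above those of all tested genes were thus not particular to genes with a member. Without Pax5 R31Q/- replicate 2 the 35 became 23, and without Pax5 R31Q/- replicate 1 the 16 became 10. The median log2 change over genes with a member was -0.11 in Pax5-null and -0.02 in Pax5 R31Q/- cells, beside -0.11 and 0.04 over all tested genes. The first 2 contrasts share the Pax5+/+ libraries.

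Genes with a member that changed without Pax5 changed less, in the median, with Pax5 R31Q, and so did all tested genes. Of the 169 genes lower in Pax5-null cells, 33 (19.5%) were also called lower in Pax5 R31Q/- cells, and 94 (55.6%) were called higher in Pax5 R31Q/- than in Pax5-null cells. Over all 462 tested genes lower in Pax5-null cells these shares were 14.3% and 61.9%. The median log2 change of the 169 was -2.41 in Pax5-null and -0.72 in Pax5 R31Q/- cells. Of the 124 higher genes, 10 (8.06%) were also called in Pax5 R31Q/-, 74 (59.7%) were called lower in Pax5 R31Q/- than in Pax5-null cells, and the medians were 2.19 and 0.59. All 384 higher genes gave 5.21% and 65.6%. The median Pax5 R31Q/- changes over the 462 and the 384 genes were -0.43 and 0.42. The first of each pair of medians belongs to the contrast that chose the genes, and the contrast of Pax5 R31Q/- with Pax5-null cells uses the same Pax5-null libraries.

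The share of lower genes was not ordered by the number of members. In Pax5-null cells it was 5.73% with 1 member, 8.49% with 2, 10.1% with 3 or 4 and 8.33% with 5 or more (48 genes), and the share of higher genes was 4.54%, 4.82%, 7.80% and 4.17%. In Pax5 R31Q/- cells 1.14%, 2.29%, 1.83% and 0 of 48 were lower. Genes that also had a lost peak were lower in 9.87% of cases in Pax5-null and 2.38% in Pax5 R31Q/- cells, and those without one in 5.03% and 0.877%. The 751 genes with a member and no wild-type peak at their TSS were more often higher (9.19%) than lower (6.26%) in Pax5-null cells, whereas the 1801 with such a peak were more often lower (6.77%) than higher (3.05%). Of 262 genes with a GCGTGAC-holding member, 14 (5.34%) were lower and 13 (4.96%) higher in Pax5-null cells. These shares are descriptions, and their differences were not tested.

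The genes with most members were Cecr2, Mtss1 and Trak1 with 8 each, Ccnd3, Erdr1 and Sema4d with 7 each, and Ablim1, Cmip, Cyth1 and 5730488B01Rik among 13 genes with 6. Mtss1, a scaffold protein of membrane and actin, was the one of these 10 called in any of the 3 contrasts. Its level was 164 and 200 TPM in Pax5+/+, 153 and 126 in Pax5+/-, 96.5 and 84.6 in Pax5 R31Q/-, and 39.5 in both Pax5-null libraries. The genotypes did not overlap, and the log2 change was -2.17 ± 0.15 (SE, adjusted p = 4.69e-05) in Pax5-null and -0.997 ± 0.146 (adjusted p = 0.0112, under 3-fold) in Pax5 R31Q/- cells. Ccnd3, which encodes cyclin D3, was at 1140 and 1347 TPM in Pax5+/+, 963 and 1084 in Pax5 R31Q/- and 462 and 482 in Pax5-null cells. Its log2 change in Pax5-null cells, -1.39 ± 0.13, did not pass 3-fold. Cyth1 stayed between 234 and 296 TPM in all 8 libraries. Cecr2 was at 164 TPM in both Pax5+/+ libraries, 292 and 259 in Pax5 R31Q/- and 171 and 203 in Pax5-null cells, with changes under 3-fold.

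Among 27 B-lineage transcription factors, 23 had a member, 57 members in all, whereas 19.4% of all tested genes had one. In Pax5-null cells 9 of the 23 were called lower, 1 higher and 13 neither (3.51% and 2.92% of all tested genes were lower and higher), and in Pax5 R31Q/- cells 1, Klf2, was called lower. The 9 were Ebf1, Tcf3, Ikzf3, Irf4, Bach2, Lef1, Spib, Klf2 and Id3, and the one called higher was Pax5. Leaving out 1 library took 4 of these calls under 3-fold. The call of Ebf1 was lost without Pax5+/+ replicate 2 or Pax5-null replicate 1, those of Spib and Klf2 without Pax5-null replicate 1, and that of Pax5 without Pax5+/+ replicate 1 or Pax5-null replicate 2. The median log2 change of the 23 was -0.87 in Pax5-null and -0.49 in Pax5 R31Q/- cells.

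Lef1, an effector of Wnt signalling with 3 members, was at 537 and 669 TPM in Pax5+/+, 659 and 460 in Pax5+/-, 383 and 414 in Pax5 R31Q/-, and 7.41 and 18.2 in Pax5-null cells. Only the Pax5-null libraries stood far below the rest. The change in these was -5.56 ± 0.36 on the log2 scale (adjusted p = 3.99e-05), and Pax5 R31Q/- exceeded Pax5-null by 4.97 ± 0.36 (adjusted p = 9.33e-05). Irf4, a factor of late B cell stages, had 4 members, at 2006 to 37097 bp downstream of its nearest TSS. It was at 184 and 146 TPM in Pax5+/+, 128 and 125 in Pax5+/-, 130 and 96.5 in Pax5 R31Q/-, and 31.1 in both Pax5-null libraries. Its Pax5-null change was -2.36 ± 0.17 (adjusted p = 6.03e-05), and that in Pax5 R31Q/- cells, -0.55 ± 0.17, was not called (adjusted p = 0.135). Bach2, with 5 members, was at 166 and 134 TPM in Pax5+/+, 122 and 121 in Pax5+/-, 79.5 and 48.4 in Pax5 R31Q/-, and 19.9 and 19.4 in Pax5-null cells. No library of 1 genotype overlapped the next, and the Pax5-null change was called (-2.86 ± 0.22, adjusted p = 8.33e-05). Id3, an inhibitor of E proteins, was at 362 and 521 TPM in Pax5+/+, 251 and 303 in Pax5 R31Q/- and 40.8 and 43.7 in Pax5-null cells (-3.33 ± 0.19 in Pax5-null, adjusted p = 2.4e-05).

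Klf2, a zinc-finger factor of lymphocyte quiescence and migration with 2 members, was at 69.8 and 61.9 TPM in Pax5+/+, 39.9 and 28.1 in Pax5+/-, 22.1 and 13.3 in Pax5 R31Q/-, and 15.5 and 25.2 in Pax5-null cells. Both mutant groups lay below Pax5+/+ and overlapped each other. The Pax5 R31Q/- change was -1.87 ± 0.30 (adjusted p = 0.0164), and this call was lost when any 1 of the 4 libraries compared was left out. Ets1 and Foxp1, each with 6 members, and Runx1, with 5, were not called in Pax5-null or Pax5 R31Q/- cells. The named genes with 4 or more lost peaks were Camk2d with 7, Foxp1 with 6, Mtss1 with 5, and Ets1, Runx1, Bach2, Irf8, Tcf4 and Nedd9 with 4 each. Of these 9 only Nedd9 was called in Pax5 R31Q/- cells, where 0.57% of all tested genes were called lower and 0.281% higher, so nothing is read from this count about lost peaks. Ets1 was at 488 and 353 TPM in Pax5+/+, 496 and 435 in Pax5 R31Q/- and 181 and 225 in Pax5-null cells.

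Of 22 genes of the pre-B cell receptor and its signalling, 17 had a member (31 members), beside 19.4% of all tested genes. In Pax5-null cells 5 were called lower, among them Igll1, Pik3ap1, Nedd9 and Cd72, and none higher, beside 3.51% and 2.92% of all tested genes, and in Pax5 R31Q/- cells Pik3ap1 and Nedd9 were called lower. The call of Igll1 was lost without Pax5+/+ replicate 2 or Pax5-null replicate 2. Nedd9, an adaptor of adhesion signalling with 2 members and 4 lost peaks, was at 225 and 185 TPM in Pax5+/+, 186 and 189 in Pax5+/-, 45.4 and 44.9 in Pax5 R31Q/-, and 18.7 and 19.3 in Pax5-null cells. Its changes were -2.15 ± 0.12 (adjusted p = 0.000313) and -3.36 ± 0.12 (adjusted p = 4.15e-06). Pik3ap1, an adaptor of PI3 kinase, was at 471 and 497 TPM in Pax5+/+, 143 and 115 in Pax5 R31Q/- and 90.5 and 105 in Pax5-null cells. Inpp5d, with 4 members, stayed between 430 and 564 TPM in all libraries.

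Of 13 receptors and other genes known to be activated by Pax5, 11 had a member (20 members), beside 19.4% of all tested genes. Cd55, Bst1, Cplx2, Bcl7a and Bfsp2 were called lower in Pax5-null cells, and Bcl7a and Bfsp2 also in Pax5 R31Q/- cells. Of all tested genes, 3.51% were called lower in Pax5-null and 0.57% in Pax5 R31Q/- cells. Cplx2 (complexin 2, a regulator of vesicle fusion), with 4 intronic members and 2 lost peaks, was at 588 and 793 TPM in Pax5+/+, 576 and 588 in Pax5+/-, 417 and 420 in Pax5 R31Q/-, and 6.43 and 4.64 in Pax5-null cells. Its Pax5-null change of -6.72 ± 0.18 (adjusted p = 1.11e-06) was the largest called fall of any gene with a member, while the Pax5 R31Q/- change was -0.70 ± 0.18 (adjusted p = 0.0764). Bfsp2, with 3 members, no lost peak and the GCGTGAC window shown above, was at 278 and 288 TPM in Pax5+/+, 165 and 179 in Pax5+/-, 74.9 and 76.3 in Pax5 R31Q/-, and 10.6 and 7.76 in Pax5-null cells. All genotypes were separate, with changes of -1.89 ± 0.15 in Pax5 R31Q/- (adjusted p = 0.000954) and -4.81 ± 0.15 in Pax5-null cells (adjusted p = 1.62e-06). At Bcl7a, a subunit of SWI/SNF complexes with 1 member and 3 lost peaks, Pax5 R31Q/- (152 and 135 TPM) was close to Pax5-null cells (99.9 and 128) and far below Pax5+/+ (627 and 745).

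Of 4 recombination genes, 3 had a member, beside 19.4% of all tested genes. Only Polm was called, as lower in Pax5 R31Q/- and in Pax5-null cells, where 0.57% and 3.51% of all tested genes were called lower. Polm, a DNA polymerase of end joining, was at 34.8 and 31.1 TPM in Pax5+/+, 17.7 and 12.3 in Pax5+/-, 1.87 and 2.01 in Pax5 R31Q/-, and 1.26 and 0.919 in Pax5-null cells. Its changes were -3.53 ± 0.21 (adjusted p = 0.000313) and -4.02 ± 0.21 (adjusted p = 1.58e-05). Polm and Rag1 each also had 1 lost peak, and Dntt had none. Rag1, of the recombinase, and Dntt, which adds bases at its joints, were called in neither contrast.

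Of 19 tabulated genes that Pax5 is known to repress, 8 had a member (11 members), beside 19.4% of all tested genes. In Pax5-null cells Flt3 alone was called, as higher, beside 2.92% of all tested genes called higher. None was called in Pax5 R31Q/- against Pax5+/+ cells, where 0.281% of all tested genes were called higher. Flt3, a cytokine receptor of lymphoid progenitors with 2 members near its TSS, was at 9.79 and 9.54 TPM in Pax5+/+, 18.8 and 21.6 in Pax5+/-, 23.6 and 23.9 in Pax5 R31Q/-, and 385 and 356 in Pax5-null cells. The change was 5.12 ± 0.12 in Pax5-null (adjusted p = 9.98e-07) and 1.21 ± 0.12 in Pax5 R31Q/- cells (adjusted p = 0.00257, under 3-fold). Tcf7, a T cell factor, was at 32.8 and 47.8 TPM in Pax5+/+ and 101 and 92.1 in Pax5-null cells, a change that did not pass 3-fold. Camk2d, a calmodulin-dependent kinase, had lower values without Pax5, with 81.98 and 46.7 TPM in Pax5+/+ and 19.99 and 28.3 in Pax5-null cells (-1.34 ± 0.29, adjusted p = 0.00966, under 3-fold). Sdc1 (syndecan 1) had a Pax5-null change of -0.21 ± 0.21. The median log2 change of the 8 was 1.29 in Pax5-null and 0.50 in Pax5 R31Q/- cells. These lists were drawn up from known Pax5 biology with earlier results of these data known, so their directions are not independent evidence.

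The other large changes beside members included genes that moved far in both mutants. The largest falls in Pax5-null cells included Cplx2, given above, and Heyl, Tmem132e and Rsph1. Heyl, a Notch-related repressor, was at 68.7 and 70.2 TPM in Pax5+/+, 13.5 and 9.27 in Pax5 R31Q/- and at most 0.0312 in Pax5-null cells. Tmem132e was at 68.2 and 90.8, 13.2 and 8.15, and 0.361 and 0.112 TPM in these genotypes, so both genes were separated in all 3. Rsph1, a protein of ciliary axonemes, was at 75.4 and 75.5 TPM in Pax5+/+, 59.0 and 65.0 in Pax5 R31Q/- and 0.452 and 0.192 in Pax5-null cells. The Pax5 R31Q/- libraries of Rsph1 lay below Pax5+/+ by a change that was not called (-0.28 ± 0.15, adjusted p = 0.365), and Pax5 R31Q/- exceeded Pax5-null by 5.58 ± 0.15 (adjusted p = 4.04e-06).

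In Pax5 R31Q/- cells the 5 largest falls were at Cldn4, Polm, Edaradd, Uchl1 and Tmem132e. Cldn4, a tight-junction protein, was at 14.05 and 25.04 TPM in Pax5+/+, 10.5 and 5.5 in Pax5+/-, 0.595 and 0.284 in Pax5 R31Q/-, and 0.11 and 0.156 in Pax5-null cells. Edaradd, an adaptor of the ectodysplasin receptor, was at 26.0 and 26.2 TPM in Pax5+/+, 8.54 and 9.35 in Pax5+/-, 1.48 and 1.52 in Pax5 R31Q/-, and 0.381 and 0.489 in Pax5-null cells. The Pax5+/- libraries thus lay between the wild type and both mutants in each gene. Uchl1, a ubiquitin hydrolase, was at 128 and 172 TPM in Pax5+/+, 15.2 and 14.9 in Pax5 R31Q/- and 10.8 and 11.97 in Pax5-null cells (-3.22 ± 0.17 in Pax5 R31Q/-, adjusted p = 0.000312).

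Stum, Ehd3 and Myl10 were among the 5 largest rises in both contrasts. Stum was at 0.581 and 0.467 TPM in Pax5+/+, 2.85 and 2.77 in Pax5+/-, 9.89 and 11.2 in Pax5 R31Q/-, and 187 and 228 in Pax5-null cells. Ehd3, a protein of endocytic recycling, was at 3.87 and 3.26, 6.06 and 5.53, 36.5 and 32.6, and 190 and 226 TPM in the same order. Myl10, a myosin light chain with 5 members, was at 40.3 and 30.2, 129 and 190, 217 and 389, and 1334 and 1552 TPM. In all 3 genes the 4 genotypes followed this order without overlap, and Pax5 R31Q/- was called both above Pax5+/+ (changes of 2.92 to 3.02) and below Pax5-null cells. Myl10 and Ehd3 each had a wild-type peak at the TSS that was absent from the R31Q/- list. So had Bex6 and the lower genes Cldn4 and Heyl, whereas Stum had no peak there. Bex6, with 3 members, rose in Pax5-null cells (5.04 and 5.08 TPM in Pax5+/+, 107 and 103 in Pax5-null) and was at 9.06 and 10.1 TPM in Pax5 R31Q/- cells.

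Hnrnpll and Pgf completed the 5 largest rises in Pax5 R31Q/- cells and behaved differently from these. Hnrnpll, a splicing factor, was at 3.21 and 1.98 TPM in Pax5+/+, 25.2 and 26.3 in Pax5 R31Q/- and 15.1 and 21.8 in Pax5-null cells, and both changes were called. Pgf, a growth factor of the VEGF family with 2 members, was at 1.79 and 2.54 TPM in Pax5+/+, 3.77 and 4.96 in Pax5+/-, 15.5 and 15.3 in Pax5 R31Q/-, and 1.42 and 1.6 in Pax5-null cells. Pgf rose by 2.39 ± 0.19 in Pax5 R31Q/- cells (adjusted p = 0.00117) and exceeded Pax5-null cells by 2.71 ± 0.19 (adjusted p = 9.25e-05). The Pax5-null libraries lay just below Pax5+/+, and that difference was not called (-0.33 ± 0.19, adjusted p = 0.225).

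**Figure D5:**
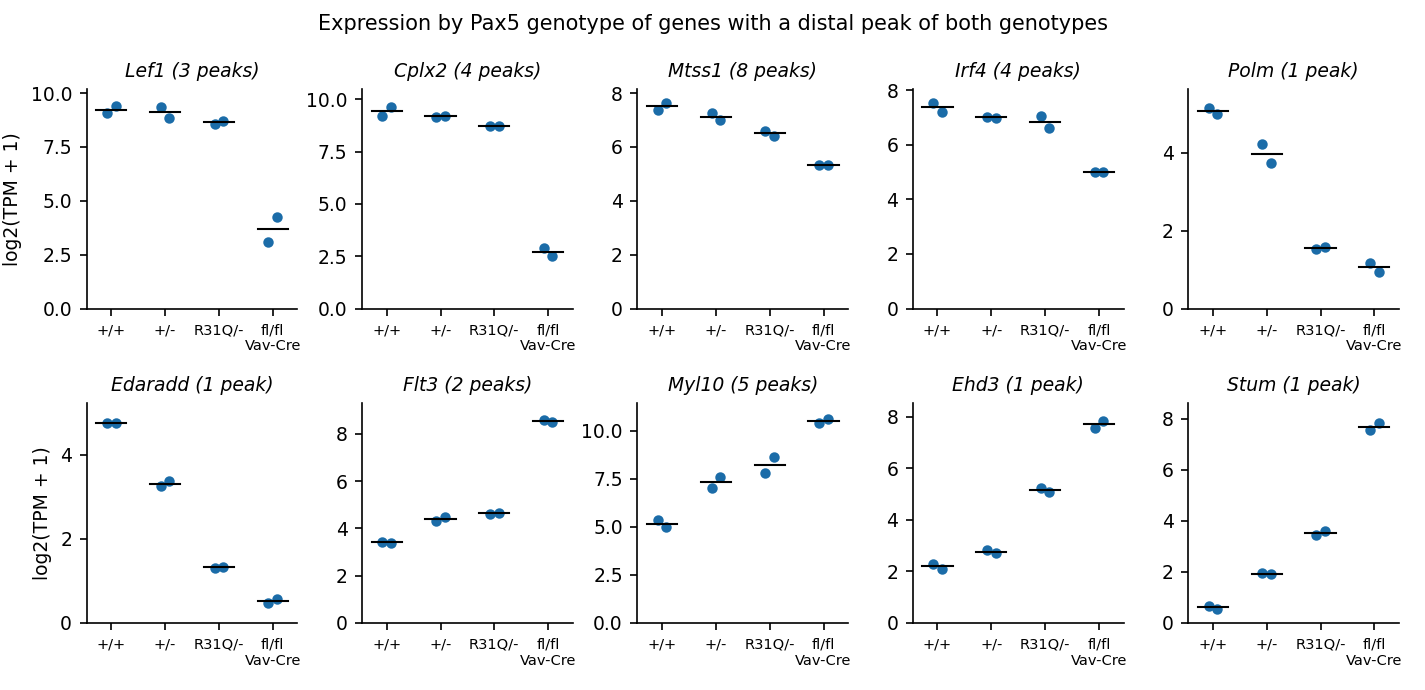
Points give log2(TPM + 1) in each of the 2 libraries per genotype, and lines their mean, for 10 genes with a distal peak of both genotypes. Lef1, Cplx2, Mtss1 and Irf4 are lowest in Pax5 fl/fl Vav-Cre cells with Pax5 R31Q/- nearer to Pax5+/+, Polm and Edaradd are also low in Pax5 R31Q/- cells, and Flt3, Myl10, Ehd3 and Stum are highest in Pax5 fl/fl Vav-Cre cells.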

How the data were processed

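Pax5 ChIP-seq peaks of 2 libraries and RNA-seq values of 8 libraries were taken as deposited. The authors aligned ChIP-seq reads with Bowtie 2 (version 2.3.5.1) to mm10, called peaks with MACS per library against an input of Rag2-/- pro-B cells, and filtered them on the caller's p-value. The deposited peak files hold a start, an end and a score of 0 throughout, so no score was used and depth is not given. Per the methods, Picard (version 2.18.27) reduced libraries to the lowest read number wherever peak regions were to be compared; whether this applied to the deposited lists is not given in the sources used here. RNA-seq expression was deposited as TPM, obtained by the authors after alignment with STAR (version 2.4.2); these sum to 1000000 in each library, which leaves read depth unknown.

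Members, classes of peaks and sequence windows were derived with Python 3.11.15, pandas 2.3.3, numpy 2.4.6 and pysam 0.24.0 on GRCm38 with RefSeq annotation. Shares carry 95% Wilson intervals and differences Newcombe intervals. Motifs were searched on both strands 150 bases to each side of the midpoint, and in equal windows 1 kb away. For expression, limma 3.58.1 (R 4.3.3) was run on log2(TPM + 1) of all 8 libraries with trended variances, for 13436 genes of at least 1 TPM in 1 library; 13154 remained in counts after immunoglobulin genes were set aside. Fold changes on this scale understate those of low genes. Of 25579 genes, 24758 (96.8%) matched RefSeq symbols or synonyms. On data simulated for Pax5 R31Q/- against Pax5+/+ (12834 genes), 187 of 200 4-fold changes were recovered, with 1 false call. The changed genes were all above 10 TPM in Pax5+/+, so recovery at lower levels was not tested. With 2 libraries against 2, an exact permutation test cannot go below p = 0.333 (two-sided), so single-gene permutation tests were not used. Named genes were the 10 with most members (ties by name), the 5 called genes with the largest change per direction and contrast with Pax5+/+, and members of 5 lists. Members, lists and alternatives were chosen with earlier results of these data known. A result that these rules would name is not reported here.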

Additional observations from a re-analysis of the deposited data

How the results depend on the processing

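The number of members stayed between 5643 and 7101 and their intronic share between 49.7% and 50.1% under a 50% reciprocal overlap, a 2.5 kb distance to a TSS, no width limit and, for the number, other TSS annotations chosen after seeing the data. Motif shares depended on the window and the letters. Within 75 bases of the midpoint the ETS share was 20.4% and the GCGTGAC share 7.28%, and with CGTGAC the share was 17.96%. Counts of called genes followed the assignment, the fold threshold and the genes counted. With assignment within 10 kb, genes with a member were lower and higher in 17 and 10 cases for Pax5 R31Q/- against Pax5+/+, 99 and 69 for Pax5-null against Pax5+/+, and 59 and 68 for Pax5 R31Q/- against Pax5-null. Without genes that have a peak at the TSS (chosen after seeing the data), they were 13 and 8, 47 and 69, and 58 and 31, so that fewer genes fell than rose in Pax5-null cells. With a 2-fold threshold they were 68 and 50, 297 and 251, and 215 and 236. Leaving out 1 library at a time gave 23 to 35 lower and 10 to 16 higher genes for Pax5 R31Q/- against Pax5+/+, 160 to 182 and 122 to 135 for Pax5-null against Pax5+/+, and 92 to 104 and 96 to 136 for Pax5 R31Q/- against Pax5-null. The lowest of the first contrast came without Pax5 R31Q/- replicate 2 (23) and replicate 1 (10). Other pseudocounts, low-value filters, quantile normalization, 100 kb assignment and fits of 2 genotypes kept each count within 1.5 times. For named genes, 3207 of 3273 recomputed results kept direction and call, 24 lost the call, 42 gained it and 0 reversed. Quantile normalization ended the Pax5-null calls of Klf2, Ebf1, Pax5 and Spib; the cause was not tested. Leaving out Pax5 R31Q/- replicate 1 ended the calls of Tcf3, Bach2 and Cd72 in Pax5 R31Q/- against Pax5-null cells. No paired analysis was possible because the labels give no replicate numbers, and those used here only name the libraries in order of deposit.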
